A study of Mus musculus with 24 samples.

Results

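The genes described here are 8 regulators of the transcription program that turns haploid round spermatids into sperm: Crem, Fhl5, Kif17, Rfx2, Sox30, Tbpl1, Gtf2a1l and Brdt. They were picked by symbol as members of the CREM pathway and as germ cell transcription regulators, and they are 8 of the 55536 genes in a table of raw RNA-seq counts. Their levels were read in 2 germ cell fractions of mouse testis, pachytene/diplotene spermatocytes (SP, cells in late prophase of meiosis) and round spermatids (RS), and in 3 genotypes. The question was when transcripts of the spermatid program appear, and whether this differed in mice without Argonaute genes. The males were on the C57BL/6J strain and 10 to 15 weeks old, and carried 2, 1 or 0 intact copies of the Ago413 locus (wild-type Ago413+/+, heterozygous Ago413+/- and null Ago413-/-). The Ago413 allele is one constitutive deletion on chromosome 4, which takes out all of Ago1 and parts of Ago3 and Ago4. The locus was targeted with loxP sites in embryonic stem cells of the 129 strain, the deletion was made by crossing the mice to a Sox2-cre deleter of mixed C57BL/6 and Swiss Webster background, and the line was then backcrossed. The deletion was not limited to germ cells. Testes of 2 to 5 males were pooled for each cell preparation and separated by sedimentation, and gradient fractions with a purity above 70% were combined. Each library is therefore a pool of animals and still holds some other cells. The paper gives a lower range of purity for the spermatocyte fractions than for those of round spermatids. After 3 libraries called outliers in the labels were set aside, 10 spermatocyte libraries (4 wild-type, 3 heterozygous, 3 null) and 11 round spermatid libraries (3 wild-type, 4 heterozygous, 4 null) remained.

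CREM is a transcription factor that binds cAMP response elements and is required for spermiogenesis. In the testis its coactivator is FHL5 (also called ACT), a protein made of LIM domains, and KIF17, a kinesin motor, carries FHL5 out of the spermatid nucleus and so limits CREM activity. RFX2 and SOX30 are DNA-binding factors that spermatids also need. TBPL1 (also called TRF2) is a relative of the TATA-binding protein, GTF2A1L is the germ cell form of the large TFIIA subunit, with which TBPL1 associates, and BRDT is the testis member of the BET family of readers of acetylated histones. Tnp1, Tnp2, Prm1 and Prm2, which encode the transition proteins and protamines that package sperm DNA, are well known targets of this program.

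Ago1 had 0 counts in every null library of both fractions and between 2.08 and 4.49 CPM (counts rescaled so that libraries share one total) in round spermatids with an intact copy, which fits the null labels and does not tell heterozygous from wild-type libraries. Ago3, of which the deletion leaves a part, did so: its levels of 4.92 to 11.3 CPM in wild-type and 12.3 to 40.8 CPM in heterozygous spermatocytes did not overlap, nor did the 3.86 to 5.92 CPM and 17.3 to 25.3 CPM of round spermatids, and null libraries held 38.2 to 86.4 CPM and 16.6 to 46.8 CPM. Library totals lay between 12825105 and 29749058 counts, and the lowest count of any of the 8 genes in a library used was 1483. All 8 passed the filter on low counts in both fractions. The fractions were checked against marker lists of 3 to 6 genes. Elongating spermatid markers separated them, with summed levels of 1827 to 5399 CPM in spermatocytes of all genotypes and 7156 to 17810.0 CPM in round spermatids. Pachytene/diplotene markers did not, at 7208 to 7880.0 CPM in wild-type spermatocytes and 6860.0 to 7573 CPM in wild-type round spermatids. Round spermatid markers did not either, at 593 to 1073 CPM and 746.5 to 1154 CPM in that order (0 of 6 called). Leptotene/zygotene markers summed to 100.4 to 283 CPM and 66.6 to 77.4 CPM, with 2 of 5 called lower in round spermatids and 1 higher. Erythrocyte markers summed to 1.60 to 6.47 CPM and 4.01 to 8.66 CPM, and 1 of 3 tested was called higher. Macrophage markers, at 12.6 to 18.2 CPM in wild-type spermatocytes and 26.6 to 45.3 CPM in wild-type round spermatids, were higher in the second fraction, and so were those of spermatogonia (33.5 to 43.7 CPM against 57.6 to 64.7 CPM, 3 of 6 called) and of peritubular cells (1.70 to 3.37 CPM against 4.07 to 6.18 CPM, 2 of 3 called). By the same rule, given below, 12.7% of all genes were called higher and 11.4% lower. Because these are bulk samples, fewer cells of a type and less RNA per cell cannot be told apart. Nothing in the labels shows that pools of one group came from separate days or litters, so p-values measure the spread between pools.

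On the GRCm38 (mm10) assembly with GENCODE M21 genes, all 8 are protein-coding. Fhl5 (ENSMUSG00000028259) spans chr4:25199908-25242876 on the minus strand. Kif17 (ENSMUSG00000028758) spans chr4:138250435-138301967 on the plus strand, where Sh2d5 overlaps it on the same strand. Fhl5 and Kif17 share chromosome 4 with the deleted locus, at distances of 101 Mb and 11.7 Mb. Rfx2 (ENSMUSG00000024206) spans chr17:56775897-56831013 (minus), Gtf2a1l (ENSMUSG00000024154) chr17:88668660-88715152 (plus) and Sox30 (ENSMUSG00000040489) chr11:45980310-46017994 (plus). Tbpl1 (ENSMUSG00000071359) spans chr10:22703879-22731938 (minus) and holds Mir7663 on its strand, and Brdt (ENSMUSG00000029279) spans chr5:107331159-107387058 (plus). Antisense genes overlap Crem (Gm6225), Fhl5 (Gm11906), Tbpl1 (Slc2a12) and Brdt (Gm8152), and the strand setting of the counts is not given in the sources used here, so reads of these pairs may not be fully separated.

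Promoter windows from 250 bases before to 50 bases after the annotated start were read from RefSeq (GRCm38.p6) for 7 of the 8 genes. They were searched on both strands for the full cAMP response element (CRE, TGACGTCA), its core (TGACG, which also lies inside a full CRE), the core of an RFX site (GTTGCC), a SOX core (ACAAT) and the CCAAT box (CCAAT, which can share bases with a SOX core on the other strand). The windows of Kif17, Rfx2 and Gtf2a1l are shown because they were the only ones of the 7 genes with CRE or RFX letters, and capitals mark those letters.
Kif17, chr4:138262001-138262300, plus strand: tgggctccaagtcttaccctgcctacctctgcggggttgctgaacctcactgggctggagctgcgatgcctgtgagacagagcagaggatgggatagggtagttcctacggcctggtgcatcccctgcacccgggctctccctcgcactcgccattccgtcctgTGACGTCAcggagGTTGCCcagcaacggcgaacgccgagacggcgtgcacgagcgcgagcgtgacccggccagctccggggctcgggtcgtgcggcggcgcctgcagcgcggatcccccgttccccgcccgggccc
Rfx2, chr17:56830959-56831258, minus strand: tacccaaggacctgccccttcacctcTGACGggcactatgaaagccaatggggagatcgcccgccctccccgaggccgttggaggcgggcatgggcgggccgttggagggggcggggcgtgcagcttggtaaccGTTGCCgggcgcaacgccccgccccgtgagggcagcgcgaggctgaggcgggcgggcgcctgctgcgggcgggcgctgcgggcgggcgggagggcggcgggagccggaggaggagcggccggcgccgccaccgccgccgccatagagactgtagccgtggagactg
Gtf2a1l, chr17:88668410-88668709, plus strand: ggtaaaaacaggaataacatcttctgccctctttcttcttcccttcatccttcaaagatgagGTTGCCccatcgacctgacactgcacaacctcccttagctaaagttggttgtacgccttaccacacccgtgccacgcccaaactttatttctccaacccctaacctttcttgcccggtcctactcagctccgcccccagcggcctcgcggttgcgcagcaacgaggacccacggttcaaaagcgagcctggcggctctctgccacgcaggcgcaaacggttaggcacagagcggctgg
Kif17 held a full CRE starting at base 165 of the window and an RFX core at base 178. This RefSeq start lies inside the span of the gene in GENCODE M21. Rfx2 held a CRE core at base 27 and an RFX core at base 135, and Gtf2a1l held an RFX core at base 63. Of 32851 promoter windows of the same length, 1.79% held the full CRE, 20.8% the CRE core, 12.5% the RFX core, 31.0% the SOX core and 37.4% the CCAAT box, so the full CRE in Kif17 is the least common of these matches. The SOX core was found in the windows of Fhl5 (2 matches) and Sox30 (1), and the CCAAT box in those of Fhl5, Brdt and Rfx2 (1 each) and Sox30 (2). A match is a stretch of letters and not a measured binding site. The windows of 6 CREM target genes (Tnp1, Tnp2, Prm1, Prm2, Smcp and Ace) held no CRE or RFX letters. Tnp1 held 1 SOX core, Tnp2, Prm2 and Smcp held 2 each, and Ace held 1 CCAAT box.

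Levels between genes were compared as CPM per kilobase of exon. In wild-type spermatocytes Gtf2a1l was the most abundant of the 8, at 214 ± 16.4 CPM per kb (SD, n = 4), followed by Tbpl1 at 157 ± 9.39, Fhl5 at 95.7 ± 24.9, Kif17 at 66.05 ± 8.89, Brdt at 61.2 ± 3.64, Rfx2 at 49.5 ± 1.69, Crem at 40.2 ± 7.34 and Sox30 at 39.6 ± 4.29. Only the steps from Gtf2a1l to Tbpl1, from Tbpl1 to Fhl5 and from Brdt to Rfx2 separated neighbours without overlap of libraries. In wild-type round spermatids (n = 3) Gtf2a1l was again first at 206 ± 12.3 CPM per kb, but Fhl5 (177 ± 16.0) and Kif17 (167 ± 18.2) now stood above Tbpl1 (127 ± 13.0). Rfx2 (59.7 ± 8.16) and Sox30 (58.3 ± 4.56) overlapped, and Brdt (43.3 ± 3.54) and Crem (40.4 ± 3.27), the last of the order, overlapped too. Crem, whose product gives the pathway its name, was thus among the least abundant of the 8 per length in both fractions. Here length is the union of all annotated exons, 5895 bases for Crem and 1171 for Fhl5, so the order depends on the annotation. By CPM alone, Crem stood above Fhl5 and Sox30 in wild-type spermatocytes (237, 112 and 119 CPM) and below the other genes. In wild-type round spermatids it stood above Fhl5, Brdt and Sox30 (238, 207, 222 and 175 CPM) and below the others. In null round spermatids (n = 4) Fhl5 had the highest mean, 249.6 ± 41.1 CPM per kb, and its libraries overlapped those of Kif17 (188 ± 26.0).

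**Figure D1:**
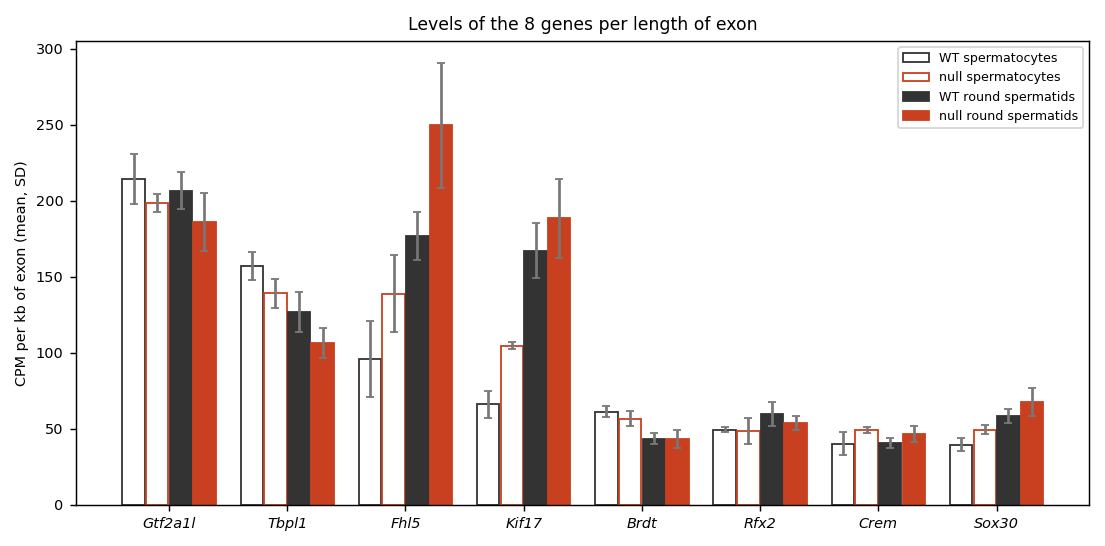
Mean level of each gene in CPM per kilobase of exon (vertical axis) for wild-type and null spermatocytes and round spermatids, with bars starting at 0 and error bars of 1 SD over 3 or 4 libraries. Fhl5 goes from 95.7 in wild-type spermatocytes to 177 in wild-type round spermatids and Kif17 from 66.05 to 167, while Gtf2a1l and Crem stay near one level.

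Wild-type round spermatids were first compared with wild-type spermatocytes, to see which of the regulators already had their spermatid level in meiotic cells. Kif17, Fhl5 and Sox30 rose in round spermatids, Brdt was lower, and the mean level of Crem was 237 CPM in spermatocytes and 238 CPM in round spermatids. A gene was called at an adjusted p-value (edgeR, Benjamini-Hochberg over 20404 genes) under 0.05 and a log2 fold change beyond 0.5. By this rule 3 of the 8 genes were called, all higher in round spermatids, against 24.2% of all genes tested. The groups did not overlap for 6 of the 8, against 33.7% of all genes.

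Kif17 showed the largest difference of the 8. Its levels were 295, 308, 254.5 and 353 CPM in the 4 wild-type spermatocyte libraries and 862, 720.4 and 715 CPM in the 3 of wild-type round spermatids. Every spermatid library thus held more than the highest spermatocyte library, with no overlap. The fitted log2 fold change was 1.34 (SE 0.20, 95% confidence interval 0.93 to 1.75, adjusted p = 0.000435), a 2.53-fold rise.

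Fhl5, the CREM coactivator that KIF17 transports, followed. It was measured at 106, 116, 78.1 and 149 CPM in wild-type spermatocytes and 191, 202 and 228 CPM in wild-type round spermatids, with the highest spermatocyte library, replicate 5, still under the lowest spermatid library. Its log2 fold change was 0.88 (SE 0.22, interval 0.43 to 1.34, adjusted p = 0.00527). The factor gene Sox30 gave 118, 110.3, 109 and 137 CPM and 183, 159 and 182 CPM, again without overlap. Its change was smaller, at 0.56 on the log2 scale (SE 0.14, interval 0.28 to 0.84, adjusted p = 0.00483).

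Crem itself (ENSMUSG00000063889, chr18:3266048-3337748, minus strand) showed no difference beyond its spread. Levels of 208, 214.5, 224 and 301 CPM in wild-type spermatocytes enclosed the 219, 257.5 and 237 CPM of wild-type round spermatids. The log2 fold change was 0.0043, and its interval of -0.32 to 0.32 leaves out a change as large as that of Fhl5. Counts per gene do not separate the activator and repressor forms that Crem is known to encode. Rfx2 stood at 372, 345, 369 and 361 CPM in spermatocytes and 498, 432 and 379 CPM in round spermatids, a difference of 0.27 (SE 0.16, adjusted p = 0.238). Its groups did not overlap, by the narrow gap between 372 and 379 CPM, and the test did not pass.

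The pair of general factors showed no rise. Tbpl1 had 471, 533, 509 and 539 CPM in spermatocytes and 379.7, 402 and 462 CPM in round spermatids (log2 -0.31, SE 0.14, adjusted p = 0.116). Gtf2a1l had 387.5, 441, 372.5 and 419 CPM and 375, 378 and 416.5 CPM (log2 -0.055, interval -0.37 to 0.26, adjusted p = 0.823). The groups of Tbpl1 did not overlap, whereas those of Gtf2a1l did. Brdt ran the other way from Kif17, with 302, 301.5, 341 and 309 CPM in spermatocytes and 201, 234 and 230.4 CPM in round spermatids. Its log2 fold change of -0.50 (SE 0.12, adjusted p = 0.00472) passed the p-value and lay just inside the fold limit. DESeq2 gave -0.53 (adjusted p = 0.000202) and so called 4 of the 8, against 26.7% of all genes by that tool. Brdt was also called (-0.55, adjusted p = 0.00541) when libraries with consecutive numbers in the labels were paired in a replicate block.

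**Figure D2:**
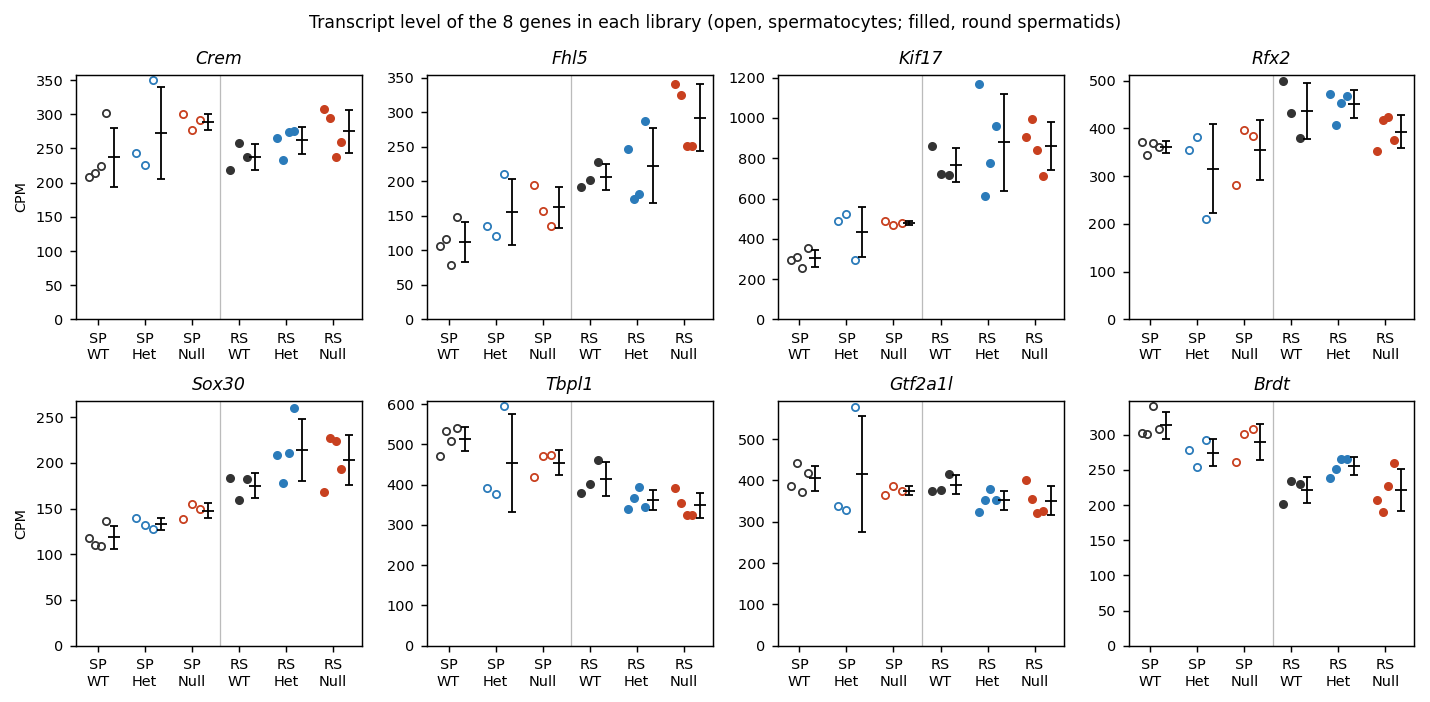
Level of each of the 8 genes in CPM (vertical axis) in every library of the 6 groups, with open circles for spermatocytes (SP), filled circles for round spermatids (RS), and the mean and 1 SD beside each group. Kif17 lies between 254 and 353 CPM in wild-type spermatocytes and between 715 and 862 CPM in wild-type round spermatids, whereas Crem covers 208 to 301 CPM and 219 to 257 CPM.

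The same contrast was made within the other genotypes. Kif17 was called higher in round spermatids of both, by 1.02 (SE 0.20, adjusted p = 0.00316) in heterozygous and by 0.85 (SE 0.20, adjusted p = 0.00564) in null males. In heterozygous males 2 of the 8 genes were called, Kif17 and Sox30 (0.68, adjusted p = 0.00363), against 8.89% of all genes. In null males 2 of 8 were called, Kif17 and Fhl5 (0.85, adjusted p = 0.0119), against 17.1%. Macrophage markers were called higher in 3 of 6 cases in both genotypes (medians 1.57 and 1.48), and tested erythrocyte markers in 2 of 3 and 3 of 3. All 5 Leydig cell markers were lower in heterozygous round spermatids (median -1.51, 1 called), with summed levels of 6.03 to 22.8 CPM in spermatocytes and 3.79 to 6.47 CPM in round spermatids. In null males 3 of 6 Sertoli cell markers were also called higher (median 1.51), with summed levels of 21.5 to 52.5 CPM in spermatocytes and 75.0 to 172 CPM in round spermatids, and the part of these cells in the values of the 8 genes was not tested. Null Sox30 (0.46, adjusted p = 0.0259) and Brdt (-0.39, adjusted p = 0.0272) passed the p-value and not the fold limit, and with consecutive library numbers paired in a block their adjusted p-values were 0.0719 and 0.0811. Crem gave -0.061 in heterozygous and -0.072 in null males, with intervals of -0.38 to 0.26 and -0.39 to 0.25.

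Some of these calls rest on single choices. Null Fhl5 lost its call without null spermatocyte library 2 or 3 (0.82 and 0.73), whereas Brdt was called in 11 of 15 other settings of the wild-type contrast. With the 3 libraries called outliers put back, no gene at all was called in the wild-type or heterozygous fraction contrast. In the null contrast 2275 genes were called in all, and 1 of the 8, Fhl5 (0.85, adjusted p = 0.0319). Kif17 was then at 0.90 (adjusted p = 0.0630) in wild-type, 0.80 (adjusted p = 0.110) in heterozygous and 0.85 (adjusted p = 0.0601) in null males. Wild-type Fhl5 was at 0.61 (adjusted p = 0.0731), wild-type Sox30 at 0.41 (adjusted p = 0.0765) and heterozygous Sox30 at 0.56 (adjusted p = 0.0721). On a scale set over all 24 libraries, the wild-type spermatocyte library left out (replicate 3) held 698 CPM of Kif17, against 254 to 352 CPM in the 4 used, and was also above them for Fhl5 (164 CPM), Sox30 (170 CPM) and Rfx2 (436 CPM). It was below them for Tbpl1 (404 CPM), Gtf2a1l (367 CPM) and Brdt (261 CPM). The round spermatid library left out (wild-type replicate 3) had less Kif17 (569.6 CPM against 702 to 834 CPM) and less Fhl5 (131 CPM against 185 to 224 CPM), and more Brdt (345 CPM against 194 to 233 CPM). For these genes, each of the 2 stood toward the level of the fraction it was not labelled as.

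The wider pathway was then read from lists of named genes. All 7 CREM targets were called higher in wild-type round spermatids, against 12.7% of all genes. Their median log2 fold change was 1.95, against 0.016 over all genes. They were the protamine genes Prm1 (2.04) and Prm2 (1.98), the transition protein genes Tnp1 (1.95) and Tnp2 (1.99), the mitochondrial capsule gene Smcp (1.65), the angiotensin-converting enzyme gene Ace (1.65), whose testis and somatic forms these counts do not separate, and the outer dense fibre gene Odf1 (1.57). Prm1 rose from 1563, 1378, 638 and 1604 CPM in the wild-type spermatocyte libraries to 5815, 4373 and 5815 CPM in round spermatids. The 7 were also all called in heterozygous (median 1.82) and null (median 2.09) males, against 8.89% and 17.1% of all genes. Targets thus differed strongly between fractions in which Crem transcript was level. The 6 elongating spermatid markers were likewise all called higher (median 1.76), and their part in the rise of the targets was not tested.

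Over the families around the 8 genes, 8 of 49 tested genes were called higher in wild-type round spermatids and 7 lower, against 12.7% and 11.4% of all genes. Among regulators around CREM, 3 of 8 signalling, coactivator and export genes were called higher and 1 lower. Camk4, a kinase known to phosphorylate CREM, rose by 1.28, the nuclear receptor gene Nr6a1 by 0.62 and the coactivator gene Crebbp by 0.55, while the export receptor gene Xpo1 fell by 1.09. Crebbp was at the edge of the call (adjusted p = 0.0491), and neither DESeq2 nor the block by consecutive library numbers (0.50, adjusted p = 0.0827) made it. Of 8 CREB/ATF relatives Creb3l4 rose by 0.59, Creb1 fell by 0.59 and Atf4 fell by 0.69. In the RFX family, 2 of 7 relatives of Rfx2 rose (Rfx1 by 0.86 and Rfx3 by 0.77) and Rfx5 fell by 1.14. Of 6 tested TBP and TFIIA factors, the somatic large subunit gene Gtf2a1 fell by 0.74 and Taf7 by 0.98, unlike the germ cell form Gtf2a1l at -0.055. In the list of 7 other late regulators, Spz1 rose by 1.29 and Zmynd15 by 0.58, and Mybl1, a regulator of pachytene transcription, fell by 1.42. Leaving out 1 wild-type library ended 6 of these calls. Creb1 lost its call without spermatocyte replicate 1 or 4 or round spermatid replicate 1 or 2 (adjusted p = 0.0605 to 0.159), Creb3l4 without replicate 2 or 4 of either fraction (0.0538 to 0.0563), and Atf4 without spermatocyte replicate 4 or round spermatid replicate 2 or 4 (0.0528 to 0.0683). Rfx5 lost it without replicate 4 of either fraction (0.0694 and 0.0739) and Zmynd15, at a log2 fold change of 0.495, without spermatocyte replicate 4. Crebbp lost it without spermatocyte replicate 1, 2 or 5 or round spermatid replicate 2 or 4 (0.0646 to 0.191). None of the tested FHL (3), kinesin-2 (4), SOX (3) and BET (3) relatives was called by edgeR or DESeq2, and 1, 1, 2 and 0 of them had an unadjusted p under 0.05, against 37.9% of all genes.

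**Figure D3:**
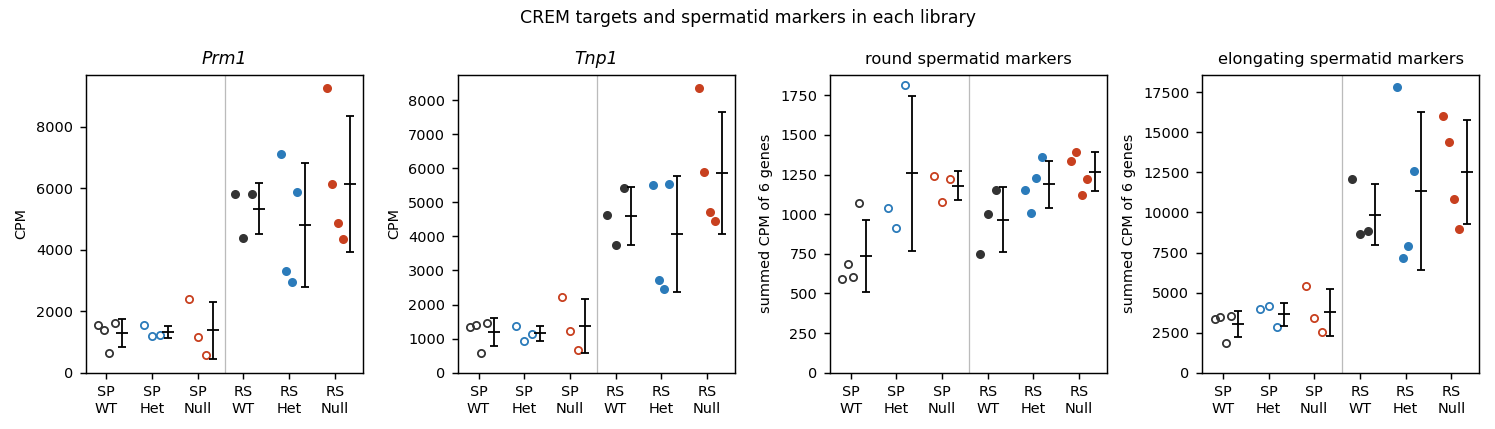
Levels in CPM of the CREM targets Prm1 and Tnp1 and summed CPM of 6 round spermatid and 6 elongating spermatid markers (vertical axes), 1 point per library of the 6 groups with mean and 1 SD. Prm1 runs from 589 to 2385 CPM over all spermatocyte libraries and from 2942 to 9261 CPM over all round spermatid libraries, and the round spermatid markers do not separate the fractions.

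Null and wild-type spermatocytes were compared to ask whether regulators of the spermatid program were already higher in meiotic cells without the Argonaute genes. No gene of the 8 passed the edgeR test that shares the spread over the 3 genotypes, where 0.0411% of 19450 genes were called, and 3 of the 8 had an unadjusted p under 0.05, all higher in null, against 30.4% of all genes, or 15.9% in that direction. The highest differences were those of Kif17, Fhl5 and Sox30. This contrast subtracts the same wild-type spermatocyte libraries as the wild-type fraction contrast, in which these genes also rose. DESeq2 called 1 of the 8, Kif17, against 15.6% of all genes. The median log2 difference of the 8 was 0.14, against -0.031 over all genes.

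Kif17 levels were 489.5, 469 and 478.5 CPM in the 3 null libraries, all above the 295, 308, 254.5 and 353 CPM of wild type. The log2 difference was 0.68 (SE 0.19, interval 0.27 to 1.09, adjusted p = 0.0636), or 1.60-fold, and it was 0.71 by DESeq2 (adjusted p = 0.0181). This placed null spermatocytes between wild-type spermatocytes and wild-type round spermatids, whose lowest library held 715 CPM. Kif17 lies 11.7 Mb from the deleted locus, and whether null mice carry sequence of the embryonic stem cell strain there was not tested. Sox30 was the other gene without overlap, at 138.5, 155 and 149.9 CPM in null against 118, 110.3, 109 and 137 CPM in wild type (0.34, SE 0.14, adjusted p = 0.134). Groups without overlap made up 2 of the 8 genes and 28.0% of all genes.

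Fhl5 stood at 194, 157.5 and 136 CPM in null spermatocytes against 106, 116, 78.1 and 149 CPM, where the third null library lay under wild-type replicate 5. Its difference of 0.55 (SE 0.24, interval 0.029 to 1.08) had an adjusted p of 0.146. Crem levels were 299.8, 277 and 291 CPM in null and 208, 214.5, 224 and 301 CPM in wild type (0.30, SE 0.18, adjusted p = 0.268). For Crem, wild-type replicate 5 was the highest library of either group. Differences of Tbpl1 (-0.16), Gtf2a1l (-0.094), Brdt (-0.092) and Rfx2 (-0.015) had adjusted p-values of 0.527 to 0.964, and their intervals all included 0.

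The number of calls depended on 2 libraries. Heterozygous spermatocyte library 3 enters the shared spread and stood apart from the other libraries of its genotype, at 293 CPM of Kif17 against 489 and 523 CPM and at 209.5 CPM of Rfx2 against 354 and 383 CPM. Left out, 3740 of 19314 genes were called (19.4%) and 1 of the 8, Kif17 (0.67, adjusted p = 0.0252). Wild-type library 5 had the highest level of its group for Crem, Fhl5, Kif17 and Sox30. With both left out, 7028 of 19000 genes (37.0%) were called and 2 of the 8, Kif17 (0.82, adjusted p = 0.000351) and Fhl5 (0.77, adjusted p = 0.00398). Crem then gave 0.4995 (adjusted p = 0.00337), just inside the fold limit, and Sox30 0.47 (adjusted p = 0.00691). With the libraries called outliers put back, Kif17 was at 0.38 (adjusted p = 0.484). Wild-type library 5 and null libraries 2 and 3 also carry library numbers above 60 in the labels, which are not said to mark a batch. Within these, Kif17 was 353 CPM in wild type against 469 and 478.5 CPM in null, and Crem 301 CPM against 277 and 291 CPM. Fhl5 was 149 CPM against 157.5 and 136 CPM, and Sox30 137 CPM against 155 and 149.9 CPM.

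Markers of spermatids and of other cells differed beside these genes. The 6 round spermatid markers summed to 593, 683, 602 and 1073 CPM in wild-type spermatocytes, with replicate 5 the high one, and to 1244, 1074 and 1219 CPM in null spermatocytes. All 6 were higher in null (median 0.69) with unadjusted p under 0.05, and edgeR called 0 and DESeq2 2 of them. The list holds Acrv1 and Zp3r (SP56), which the paper reports as higher in null spermatocytes. Its sum is thus not a separate count of spermatid cells in the fraction. Between wild-type fractions 0 of the 6 were called. Elongating spermatid markers covered 1827 to 3520.0 CPM in wild type and 2527 to 5399 CPM in null (median 0.28, 0 called by either tool and 0 at an unadjusted p under 0.05). Pachytene/diplotene markers covered 7208 to 7880.0 CPM in wild type and 6180.0 to 6939 CPM in null. Of the 6 spermatogonia markers 5 were higher in null (median 0.70), 3 with an unadjusted p under 0.05, 0 called by edgeR and 2 by DESeq2. Their summed level was 33.5 to 43.7 CPM in wild type and 41.35 to 71.8 CPM in null. All 6 Sertoli cell markers were lower in null (median -0.71, 37.4 to 97.2 CPM in wild type and 21.5 to 52.5 CPM in null), with 0 at an unadjusted p under 0.05. Of 4 tested macrophage markers 3 were higher (median 0.68), with an unadjusted p under 0.05 for 2 higher and 1 lower and 1 called higher by DESeq2. The summed level of all 6 in that list was 12.1 to 22.2 CPM in null and 12.6 to 18.2 CPM in wild type. Of 5 leptotene/zygotene markers 1 was higher and 2 were lower at an unadjusted p under 0.05, the same numbers as DESeq2 called, with summed levels of 100.4 to 283 CPM in wild type and 99.85 to 149 CPM in null. No marker of these lists was at 0 in any group. The part of any of these cells in the levels of Kif17, Fhl5 and Sox30 was not tested.

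The CREM targets were read in the same contrast, and their difference from Kif17 was not tested. In null against wild-type spermatocytes 6 of 7 were higher, with a median log2 difference of 0.22, and none was called by edgeR or DESeq2 or had an unadjusted p under 0.05. Tnp1 was 2228, 1219 and 667 CPM in the null libraries and 1349, 1389, 592 and 1445 CPM in wild type. Null library 1 was the highest and null library 3 lay below 3 of the 4 wild-type libraries. Prm1 likewise ran from 589 to 2385 CPM over the 3 null pools, around means of 1379 CPM in null and 1296 CPM in wild type.

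The families around the 8 genes held no edgeR call in null against wild-type spermatocytes. Among the 2 most abundant genes of each list, values above 0.5 were those of Rfx1 (0.81, adjusted p = 0.0599), Sox5 (0.77, adjusted p = 0.0737), Creb3l4 (0.65, adjusted p = 0.0741), the germ cell nuclear factor gene Nr6a1 (0.61, adjusted p = 0.0599) and the kinesin-associated gene Kifap3 (0.59, adjusted p = 0.0702). For each of these, which were named for their size, the 3 null libraries lay above all 4 of wild type, and 28.0% of all genes had groups without overlap. Unadjusted p-values under 0.05 were found for 3 of 8 signalling genes, 2 of 8 CREB/ATF genes, 1 of 3 FHL, 1 of 4 kinesin-2, 4 of 7 RFX, 2 of 3 SOX, 4 of 6 TBP and TFIIA, 0 of 3 BET and 4 of 7 other regulators, in all 21 of 49 against 30.4% of all genes. DESeq2 called 11 of these 49 genes higher and 3 lower, against 9.08% and 6.48% of all genes, each of the 5 named above among the higher ones.

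Heterozygous spermatocytes, compared with the same wild-type libraries as the null, gave 0 calls by edgeR and DESeq2 among the 8 genes (0.0257% of all genes by edgeR and 6.31% by DESeq2), with 1 at an unadjusted p under 0.05 (24.6% of all genes). Kif17 was 489, 523 and 293 CPM (0.57, SE 0.19, adjusted p = 0.130), Fhl5 136, 120.4 and 211 CPM (0.51, SE 0.24, adjusted p = 0.210) and Crem 243, 226 and 350.3 CPM (0.25, SE 0.18, adjusted p = 0.412). The third library was highest for Fhl5, Crem, Tbpl1 (594 CPM against 391 and 376 CPM) and Gtf2a1l, and lowest for Kif17, Rfx2 and Sox30. Its round spermatid markers, at 1816 CPM against 1041 and 915 CPM, were the highest of all 21 libraries. Round spermatid markers were higher in heterozygous than in wild-type spermatocytes in 6 of 6 cases, all with an unadjusted p under 0.05, and 4 were called by DESeq2. Spermatogonia markers were higher in 6 of 6 (median 1.00, 1 called by edgeR and 4 by DESeq2), at 61.4 to 85.4 CPM against 33.5 to 43.7 CPM, and Leydig cell markers in 5 of 5 (median 1.18, 2 called by DESeq2), at 6.03 to 22.8 CPM against 3.25 to 10.1 CPM. The part of these cells in the values of the 8 genes was not tested. The groups did not overlap for Brdt, lower in all 3 heterozygous libraries (278, 254 and 292 CPM, log2 -0.14, adjusted p = 0.499), against 17.6% of all genes. Kif17 was called once that library (0.78, with 0.135% of all genes called in that fit) or wild-type library 5 (0.66, with 15.5%) was left out. Null against heterozygous spermatocytes gave 0 of 8 by edgeR and DESeq2 (0.00514% of all genes by edgeR and 0.0206% by DESeq2) and 0 at an unadjusted p under 0.05 (3.74% of all genes), with differences between -0.17 for Gtf2a1l and 0.14 for Rfx2.

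In round spermatids the comparison of null with wild type gave 0 calls among the 8 by edgeR (0.0518% of 19310 genes) and by DESeq2 (3.64%), and 2 of the 8 had an unadjusted p under 0.05, against 19.3% of all genes. Fhl5 had the largest difference. Its levels of 342, 325, 251 and 251 CPM in the 4 null libraries were all above the 191, 202 and 228 CPM of wild type, the single case of no overlap among the 8 (19.4% of all genes). The log2 difference was 0.46 (SE 0.16, interval 0.12 to 0.80, adjusted p = 0.144), or 1.38-fold. Round spermatid markers were also higher in null, 6 of 6 (median 0.37, 4 with an unadjusted p under 0.05), with summed levels of 746.5 to 1154 CPM in wild type and 1123 to 1394 CPM in null. The same held for 6 of 6 macrophage markers (median 0.47, 3 with an unadjusted p under 0.05), at 26.6 to 45.3 CPM in wild type and 31.2 to 60.7 CPM in null. No marker of either list was called by edgeR or DESeq2, and 8.01% of all genes were higher at that p. Their part in the level of Fhl5 was not tested.

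Tbpl1 leaned the other way, with 391, 354, 324 and 325 CPM in null against 379.7, 402 and 462 CPM (-0.28, SE 0.12, adjusted p = 0.209). Its partner Gtf2a1l was 400.0, 356, 322 and 326.5 CPM against 375, 378 and 416.5 CPM (-0.18, adjusted p = 0.388). For both, 3 of 4 null libraries lay below all 3 of wild type. Kif17, at 907, 992.5, 842 and 709.6 CPM in null against 862, 720.4 and 715 CPM, overlapped (0.14, interval -0.22 to 0.50, adjusted p = 0.678). Crem (0.18), Sox30 (0.19), Rfx2 (-0.18) and Brdt (-0.026) had adjusted p-values of 0.420 to 0.936. Of the CREM targets 7 of 7 were higher in null (median 0.21), with none called by edgeR or DESeq2 and none at an unadjusted p under 0.05.

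Heterozygous round spermatids gave 0 of 8 calls by edgeR (0.0207% of all genes) and DESeq2 (0.0363%) against the same wild-type libraries, and 0 at an unadjusted p under 0.05 (8.88% of all genes). Sox30 came nearest, with 208, 177.5, 211 and 260.2 CPM against 183, 159 and 182 CPM (0.30, SE 0.14, adjusted p = 0.569). Brdt was the gene without overlap, higher in all 4 heterozygous libraries (238, 251, 266 and 265 CPM against 201, 234 and 230.4 CPM, log2 0.21, adjusted p = 0.653), against 9.81% of all genes. Kif17 varied most within this group, from 611 to 1170.0 CPM. Round spermatid markers were higher than in wild type in 6 of 6 cases (median 0.35, 4 with an unadjusted p under 0.05), and 2 of 6 macrophage markers were higher at that p, with none of either list called by edgeR or DESeq2. Their part in these values was not tested. Null against heterozygous round spermatids likewise gave 0 of 8 by both tools (0.00518% of all genes by edgeR and 0.104% by DESeq2), with Fhl5 at 0.36 (SE 0.15, adjusted p = 0.631) the 1 gene with an unadjusted p under 0.05 (7.67% of all genes).

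**Figure D4:**
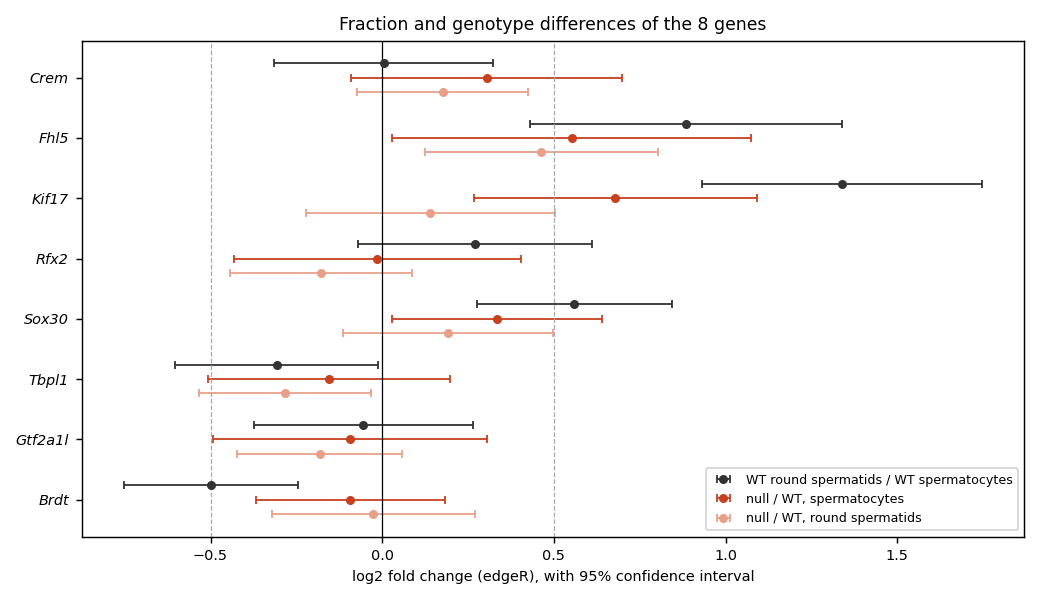
Log2 fold change (horizontal axis, edgeR, with 95% confidence interval) of each gene for wild-type round spermatids over wild-type spermatocytes, null over wild-type spermatocytes and null over wild-type round spermatids, with dashed lines at the fold limit of 0.5. Kif17 has 1.34, 0.68 and 0.14 in that order and Fhl5 has 0.88, 0.55 and 0.46, and the 3 contrasts share wild-type libraries.

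Whether the null difference itself varied between fractions was tested as an interaction. None of the 8 genes was called and none had an unadjusted p under 0.05, by edgeR, against 0.0% and 5.95% of 20404 genes. DESeq2 called none of the 8 either, and 0.0% of all genes. Kif17 had the largest estimate, -0.49 (SE 0.28, interval -1.07 to 0.085, adjusted p = 0.807), meaning a smaller null difference in round spermatids. That interval spans no difference and a loss of the whole spermatocyte difference, so Kif17 was not shown to respond differently in the 2 fractions. For the other 7 genes the estimates lay between -0.12 and 0.11.

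Within a fraction, the 8 genes varied together in part from library to library. These correlations of log2 CPM are descriptions over libraries that share genotype and gradient. Tbpl1 and Gtf2a1l, whose products associate, gave r = 0.87 (Spearman's rho 0.87) over 10 spermatocyte libraries and r = 0.94 (rho 0.93) over 11 round spermatid libraries. Without the 2 libraries farthest from the median of Tbpl1 these were 0.87 and 0.91. Crem and its coactivator gene Fhl5 gave r = 0.84 (rho 0.90, 0.76 without 2 libraries) and r = 0.72 (rho 0.73, 0.55 without 2). Kif17 and Sox30 gave r = 0.82 (rho 0.65, 0.77 without 2) in spermatocytes and 0.53 (rho 0.51, 0.56 without 2) in round spermatids.

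Kif17 and Tbpl1 ran in opposite directions in spermatocytes (r = -0.77, rho -0.75, -0.74 without 2) and less so in round spermatids (r = -0.35, rho -0.27). Kif17 and Crem gave r = 0.19 (rho 0.16, 0.41 without 2) in spermatocytes and 0.47 (rho 0.58, 0.63 without 2) in round spermatids. Rfx2 against Crem gave r = -0.62 over the spermatocyte libraries but -0.23 without 2 of them, so that value rests on those libraries, one of which is heterozygous library 3. In all, 28 pairs were computed in each fraction.

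**Figure D5:**
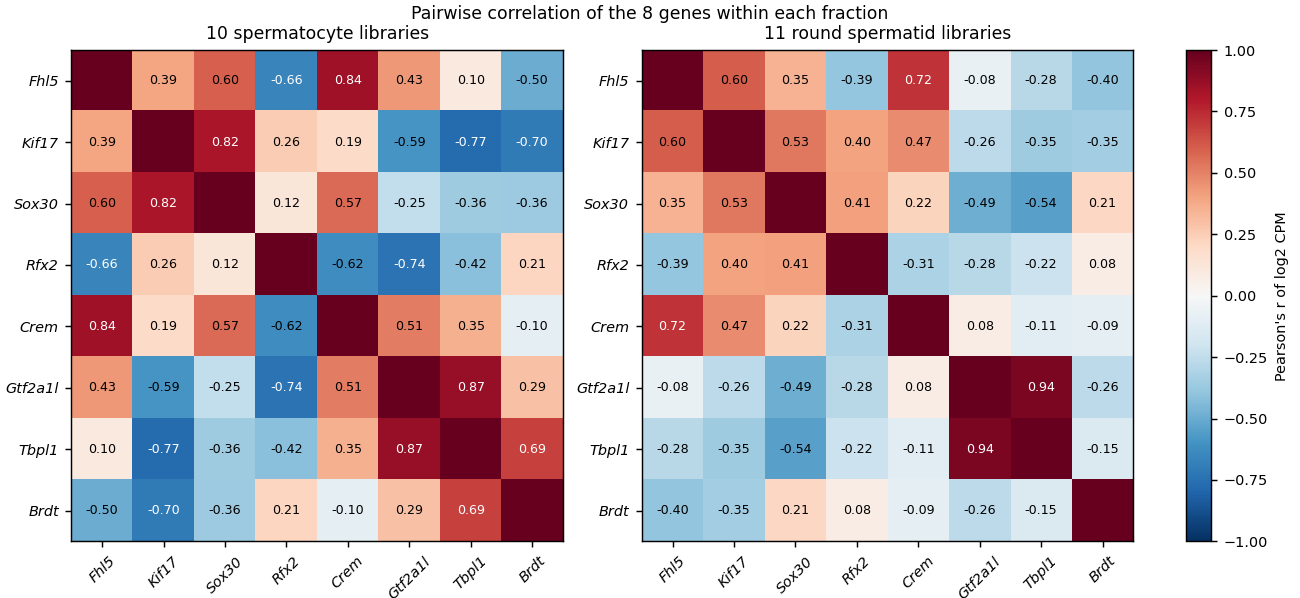
Pearson's r of log2 CPM for each pair of the 8 genes (both axes), over the 10 spermatocyte libraries on the left and the 11 round spermatid libraries on the right, with the colour scale from -1 to 1. Tbpl1 with Gtf2a1l (0.87 and 0.94) and Fhl5 with Crem (0.84 and 0.72) are the pairs with high values on both sides.

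The genes closest to each of the 8 across all 21 libraries were sought among 8487 genes with a mean of at least 10 CPM. Because the libraries fall into 2 fractions, the correlation is given within each. Kif17 was most like Tns1 (0.97 in spermatocytes and 0.93 in round spermatids), and Fhl5 most like Chchd3 (0.99 and 0.98), a gene of the mitochondrial cristae. Crem was closest to 4930547H16Rik (0.95 and 0.93), Rfx2 to Tmem94 (0.96 and 0.85) and Sox30 to Gm39566 (0.80 and 0.85). Tbpl1 was closest to Gtf2e2 (0.99 and 0.80), which encodes a subunit of the general factor TFIIE, Gtf2a1l to Tiprl (0.97 and 0.93) and Brdt to Pyroxd1 (0.84 and 0.94). None of the 8 was the closest gene of another.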

How the data were processed

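The authors deposited raw gene counts for 24 libraries of directional polyA RNA-seq. Per the labels and the study's methods, reads were trimmed with Trim Galore, reads under 50 nt were removed, and STAR aligned the rest to mm10 and counted them per gene. The annotation release and strand column are not given in the sources used here. All 55536 identifiers were found in GENCODE M21. STAR counts only uniquely placed reads, so genes with near-identical copies are undercounted. Libraries that the labels call outliers and set aside from later steps were left out.

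Genes with at least 10 counts in 3 or more libraries were tested with edgeR 4.0.16 (TMM scaling, quasi-likelihood test, R 4.3.3), each fraction on its own with 3 genotypes sharing the spread, and all 6 groups in 1 fit for fraction contrasts and the interaction. Genes were called at the study's thresholds, adjusted p below 0.05 with a log2 fold change beyond 0.5 either way. The script was tested on simulated data. DESeq2 1.42.0, other scaling, no filter, a replicate block, a library number term, 2-group fits, outliers put back and each library left out were alternatives, and 2 settings leaving out doubted libraries were added after seeing the data. CPM used TMM over 21 libraries (log2 prior count 2). The 8 genes and all lists were chosen with earlier results of these data known, and support nothing by themselves. Genes named beyond the 8 were the CREM targets, the 2 most abundant of each list, those called between wild-type fractions and the likest gene of each member.

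Same-numbered replicates came from no stated shared animal or day. Deviations from group means correlated above 0.1 in 4 of 7 same-numbered spermatocyte pairs and 0 of 10 round spermatid pairs, so replicate numbers were not used to pair samples. Between the fractions, the deviations of neighbours in library number had r above 0.1 for 3 of 3 wild-type pairs (0.12 to 0.31), 3 of 3 null pairs (0.21 to 0.30) and 2 of 3 heterozygous pairs (-0.14 to 0.21). No source says that such numbers mark one preparation, and the fits above left them unpaired. Values with these pairs as a block are given where they change a call. No 2 libraries of a group were repeat deposits (37 pairs, chi-square per gene 8.92 to 160.3).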

Additional observations from a re-analysis of the deposited data

Results flagged for a closer look

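The heterozygous spermatocyte library that the labels call an outlier (replicate 4) was used in no comparison and stood above each of the 4 wild-type spermatocyte libraries used for 5 of the 8 genes. On the scale set over 24 libraries it held 319 CPM of Crem (wild type 216 to 300.4 CPM), 188 CPM of Fhl5 (78.1 to 148 CPM), 725 CPM of Kif17 (254 to 352 CPM), 405 CPM of Rfx2 (348 to 387 CPM) and 184.5 CPM of Sox30 (109 to 136.5 CPM). Its Kif17, Rfx2, Sox30 and Brdt levels were also above those of the 3 heterozygous spermatocyte libraries used. The wild-type spermatocyte library left out, replicate 3, held more Rfx2 (436 CPM). Dixon's criterion was applied to the 8 genes in each of the 3 groups with 4 libraries used, 24 sets of values, and no library passed it. Groups with 3 libraries, and the libraries left out, were not tested in this way.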

How the results depend on the processing

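Each group held 3 or 4 pools, and neither lower depth nor the purity of the fractions was tried as a setting. The lowest count of any of the 8 genes in a library was 1483. In null against wild-type spermatocytes, 8 genes and 0 of the 8 regulators were called, and with DESeq2 these were 3026 and 1, without a filter 2623 and 1, with only the compared groups 1303 and 1, without heterozygous library 3 3740 and 1, without that library and wild-type library 5 7028 and 2, and with a library number term 4 genes. Leaving out 1 library gave 4 to 4526 genes and 0 to 2 of the 8 (the upper values without wild-type library 5, with Kif17 at 0.77, adjusted p = 0.0203, and Fhl5 at 0.73, adjusted p = 0.0468). Heterozygous against wild-type spermatocytes went from 5 genes to 1228 with DESeq2, 1481 without a filter, 3 with the outliers, 2 with the compared groups alone, and 3364 genes and 1 of the 8 without both doubted libraries, and to 3 to 2966 genes and 0 to 1 of the 8 with 1 library left out. Null against heterozygous spermatocytes (1 gene) gave 4 with DESeq2, 30 without a filter and 0 with the compared groups alone. In round spermatids, null against wild type (10 genes) gave 702 with DESeq2, 20 with DESeq2 size factors, 238 without a filter, 26 with the outliers and 5 to 9 with 1 library left out, heterozygous against wild type (4) gave 7 with DESeq2 and 10 without a filter, and null against heterozygous (1) gave 20, 11 and 1 to 2. None of these round spermatid settings called any of the 8. Between fractions, putting the outliers back took the wild-type count from 4934 to 0 genes (3 to 0 of the 8), the heterozygous from 1814 to 0 (2 to 0) and the null from 3498 to 2275 (2 to 1). With 1 library left out the heterozygous count was 962 to 2329, and the null count 1248 to 4129 genes with 1 to 3 of the 8. The interaction, 0 genes, gave 200 without both doubted libraries.

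With the replicate number as a block, null against wild-type spermatocytes gave 687 genes and 0 of the 8, and heterozygous against wild-type 2 genes, and no call among the 8 was changed by it. A block by consecutive library numbers gave 1113 genes for the heterozygous fraction contrast, called Brdt besides the other 3 of the 8 between wild-type fractions, and changed no other call among the 8. Under the replicate block Rfx2 (0.091), Fhl4 (-0.0051) and Prm1 (-0.0020) changed sign in null against wild-type spermatocytes, as did Gtf2a1l in heterozygous against wild type (-0.13) and Tbpl1 in null against heterozygous (0.0049). The block by consecutive numbers turned Crem (-0.054) and Rfx8 (0.016) between wild-type fractions.

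Other sign changes concerned differences that passed no test. In null against wild-type spermatocytes, Rfx2 (-0.015) was 0.013 with DESeq2 and with its size factors, 0.014 without a filter, 0.032 with the compared groups alone, 0.046 without both doubted libraries and -0.096 to 0.092 with 1 library left out. Gtf2a2 was 0.0094 with DESeq2, 0.0093 with its size factors, 0.0052 without a filter, 0.077 with the outliers, 0.026 with the compared groups alone, 0.11 without both doubted libraries and -0.072 to 0.067 with 1 left out. The library number term gave -0.056 for Atf2, 0.020 for Fhl1, -0.015 for Fhl4 and 0.090 for Prm2, and Fhl4 was -0.0069 without heterozygous library 3. Prm2 was 0.0011 with the compared groups alone and 0.0073 without both doubted libraries, where Tbp was 0.017. With the outliers Prm1 was -0.13, Tnp1 -0.0032 and Tnp2 -0.073. With 1 library left out the targets spanned -0.59 to 0.48 (Prm1), -0.79 to 0.35 (Prm2), -0.36 to 0.56 (Tnp1), -0.28 to 0.51 (Tnp2) and -0.085 to 0.41 (Odf1), and others -0.064 to 0.085 (Atf2), -0.058 to 0.059 (Fhl4) and -0.12 to 0.011 (Tbp).

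In heterozygous against wild-type spermatocytes, leaving out both doubted libraries gave Rfx2 0.067 and Gtf2a1l -0.22, and leaving out 1 gave -0.32 to 0.068 and -0.24 to 0.22. In null against heterozygous spermatocytes, the library number term gave Crem -0.082, Fhl5 -0.028, Rfx2 -0.021, Sox30 -0.021 and Brdt -0.0097, the outliers Fhl5 -0.0090, Kif17 -0.088 and Tbpl1 0.012, no filter Tbpl1 0.046, and leaving out both doubted libraries Kif17 -0.043, Rfx2 -0.021, Tbpl1 0.28 and Gtf2a1l 0.20. With 1 left out, Crem spanned -0.056 to 0.27, Fhl5 -0.15 to 0.32, Kif17 -0.11 to 0.27, Rfx2 -0.097 to 0.31, Tbpl1 -0.14 to 0.21 and Gtf2a1l -0.31 to 0.13.

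In null against wild-type round spermatids Brdt was 0.0097 without a filter and -0.15 to 0.047 with 1 library left out, and Prm1 -0.077 to 0.27. Heterozygous against wild type spanned -0.029 to 0.19 for Fhl5 and -0.043 to 0.12 for Rfx2, and null against heterozygous -0.0094 to 0.091 for Crem, -0.19 to 0.13 for Kif17, -0.18 to 0.016 for Sox30 and -0.062 to 0.011 for Gtf2a1l. Between wild-type fractions Crem was -0.022 with DESeq2 and with its size factors, -0.031 without heterozygous library 3 and -0.055 to 0.14 with 1 left out, Fhl1 -0.043 to 0.63, Prkar1a -0.011 to 0.13 and Rfx8 -0.11 to 0.046. Between heterozygous fractions, leaving out heterozygous library 3, alone or with wild-type library 5, gave Crem 0.13 and Gtf2a1l 0.053, and leaving out 1 library -0.18 to 0.13 and -0.38 to 0.053. In the interaction the outliers gave Fhl5 0.23, Sox30 0.047 and Brdt -0.12, and leaving out 1 library gave Fhl5 -0.21 to 0.11, Tbpl1 -0.14 to 0.0076 and Gtf2a1l -0.11 to 0.011. The cause of these changes was not tested.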
